A study of Homo sapiens with 6 samples.

Results

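The genes described here are 37 ribosome biogenesis and nucleolar genes, chosen as a fixed list of symbols: processing factors of the nucleolus and components of RNA polymerase I. The list was chosen with earlier results of these data known. All 37 were matched by symbol among the 17468 genes of the expression table, and all 37 passed the filter for testing (a mean of at least 1 FPKM over the libraries), which 11129 genes passed in all. The unit, FPKM (fragments per kilobase, normalized for library size), allows levels to be compared between genes per length. Ribosomes are built in the nucleolus, where RNA polymerase I transcribes a long precursor that is cleaved, chemically modified and folded into ribosomal RNA. Small nucleolar ribonucleoproteins (snoRNPs) guide the modification, the small-subunit (SSU) processome and later factors shape the 40S subunit, and a separate set of factors shapes the 60S subunit. The pathway is known for its high activity in growing tumour cells and for the many promoters in it that the transcription factor MYC can bind.

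Messenger RNA levels were measured by RNA sequencing in the human melanoma lines A375 and Colo800, each carrying a scrambled hairpin, ETV1-sh1 or ETV1-sh2. ETV1 is an ETS-family transcription factor, and the question of the series is how its knockdown changes transcription. According to the design text, infection was in duplicate and RNA was taken after 4 days, but the table holds 1 column for each line and hairpin, so the 6 libraries stand alone in their line and hairpin, and whether a column pools the duplicates is not stated. All cells were grown in 10% FBS. The sample labels add agents that the design text does not mention. They list DMSO for ETV1-sh1, 5 nM trametinib (a MEK inhibitor) for ETV1-sh2 and 1 uM vemurafinib (spelled so in the labels, a BRAF inhibitor) for the scrambled hairpin, with siRNA for 48 hours and drug for 8 hours. If those agents were used, hairpin and agent cannot be told apart in any comparison with scrambled. The same holds for ETV1-sh2 against ETV1-sh1.

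The labels were checked first. Levels of a gene are given throughout in the order scrambled, ETV1-sh1, ETV1-sh2. ETV1 stood at 82.8, 34.6 and 3.46 FPKM in A375 and at 180.3, 54.6 and 9.80 in Colo800, so ETV1-sh2 left the least ETV1 in both lines. Of 10 melanocyte markers listed, 9 were matched, with SOX10 at 353 to 712 FPKM in every library, whereas MLANA did not exceed 1.85 FPKM and the pigment enzyme genes TYR and DCT were under 0.1 FPKM in A375. Among markers of other cell types, PTPRC, CD3E, CDH5 and KRT5 were at or below 0.22 FPKM in all 6 libraries. Others of the same lists were not near 0. KRT10 was at 5.03 to 11.6 FPKM over all libraries. In A375, KRT14 was at 9.72, 3.26 and 1.94 FPKM, LYZ at 12.2, 19.8 and 21.0, and KDR at 1.56, 4.77 and 1.37. In Colo800 these were at most 0.555, 1.02 and 0.419 FPKM. The summed FPKM of the keratinocyte list was at most 21.6 and of the endothelial list at most 5.77. The leukocyte list summed to 77.9 to 327 FPKM, mostly CD68, which is not restricted to leukocytes. The summed FPKM of the fibroblast list was 11.6 to 16.8 with the scrambled hairpin or ETV1-sh1 and 36.0 and 31.7 with ETV1-sh2, and its part in the members' changes was not tested. Absolute depth is unknown. The steps between low values placed the libraries at 0.768 to 2.10 times the depth of A375 scrambled, with A375 ETV1-sh2 the deepest. The placement is rough. Only 7.51% (A375 ETV1-sh2) to 10.4% (A375 ETV1-sh1) of the low values compared lay at the most common ratio, from which depth was read.

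The promoters of the members were searched for short motifs. RefSeq promoters (GRCh38.p14, 300 bases each, from 250 before the transcript start) were matched for 31 of the 37 members; NOP58, RRP12, BOP1, RRS1, RRP1B and NOLC1 had no entry. The palindromic E-box CACGTG, the textbook binding motif of MYC and related factors, was present in 11 of the 31 (35.5%), against 911 of 8711 promoters of genes tested (10.5%) and 7.43% of all promoters. Of 108 promoters of other genes of the pathway 27.8% held it. The ETS core GGAA, on either strand, was in 30 of the 31 members and in 95.4% of genes tested, so it separates nothing at this length. The longer form CCGGAA, on either strand, was in 16 of 31 members (51.6%), in 60.2% of the other pathway genes and in 30.0% of genes tested. Of 12 E-box matches 2 shared a base with a GGAA match. A match is a description of letters in a window and shows no binding. The E-boxes of the 4 members that carried one and fell with ETV1-sh2 (below) are shown with 12 bases on each side, 5′ to 3′ on the strand of the gene, the E-box in capitals:
WDR43, chr2:28894658-28894687, plus strand, beginning 3 bases after the start: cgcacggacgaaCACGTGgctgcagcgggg
IMP4, chr2:130342682-130342711, plus strand, beginning 203 bases before the start: gcggtcctaagtCACGTGtgacattctgta
IMP4, chr2:130342900-130342929, plus strand, beginning 15 bases after the start: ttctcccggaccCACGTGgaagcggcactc
PES1, chr22:30591880-30591909, minus strand, beginning 13 bases after the start: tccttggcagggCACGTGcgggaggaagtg
EBNA1BP2, chr1:43172790-43172819, minus strand, beginning 237 bases before the start: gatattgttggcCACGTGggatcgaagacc
Among members with a promoter entry, the E-box was present in 4 of the 14 that fell with ETV1-sh2 (28.6%) and in 7 of the 17 others (41.2%), and CCGGAA in 7 and 9 of them.

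Together the 37 genes took 0.846%, 0.678% and 0.555% of the FPKM sum in A375. In Colo800 the shares were 0.755%, 0.669% and 0.557%. In both lines the share was highest with the scrambled hairpin and lowest with ETV1-sh2. The very abundant NPM1 and NCL made up 45.2% to 53.2% of the members' sum. Without these genes the shares were 0.464%, 0.338% and 0.285% in A375 and 0.389%, 0.333% and 0.260% in Colo800, in the same order. In bulk RNA a smaller number of cells of a type and less RNA per cell cannot be told apart.

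Each hairpin library was then set against the scrambled library of its line, on the log2(FPKM + 1) scale and without a test, since each is 1 library against 1. With ETV1-sh2, 36 of 37 members were lower in A375 (median difference -0.77) and 37 of 37 in Colo800 (median -0.63), against 46.8% and 46.3% of all genes tested, whose medians were 0.04 and 0.05. With ETV1-sh1, 34 of 37 were lower in A375 (median -0.45) and 27 of 37 in Colo800 (median -0.15), against 51.9% and 47.4% of all genes tested. Counting differences of at least 1.5-fold, 27 members were lower with ETV1-sh2 in A375 and 21 in Colo800, where 17.4% and 15.7% of genes tested were. With ETV1-sh1 the numbers were 14 and 5, beside 11.6% and 11.3% of genes tested, so the share in Colo800 was close to that of all genes. No member was higher by 1.5-fold in any of the 4 hairpin libraries, whereas 9.94% (A375 ETV1-sh1), 18.9% (A375 ETV1-sh2), 9.52% (Colo800 ETV1-sh1) and 16.4% (Colo800 ETV1-sh2) of genes tested were. In all, 25 of 37 members were below scrambled in all 4 hairpin libraries, as were 16.8% of genes tested. The comparisons of a line share their scrambled library and are not independent.

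**Figure D1:**
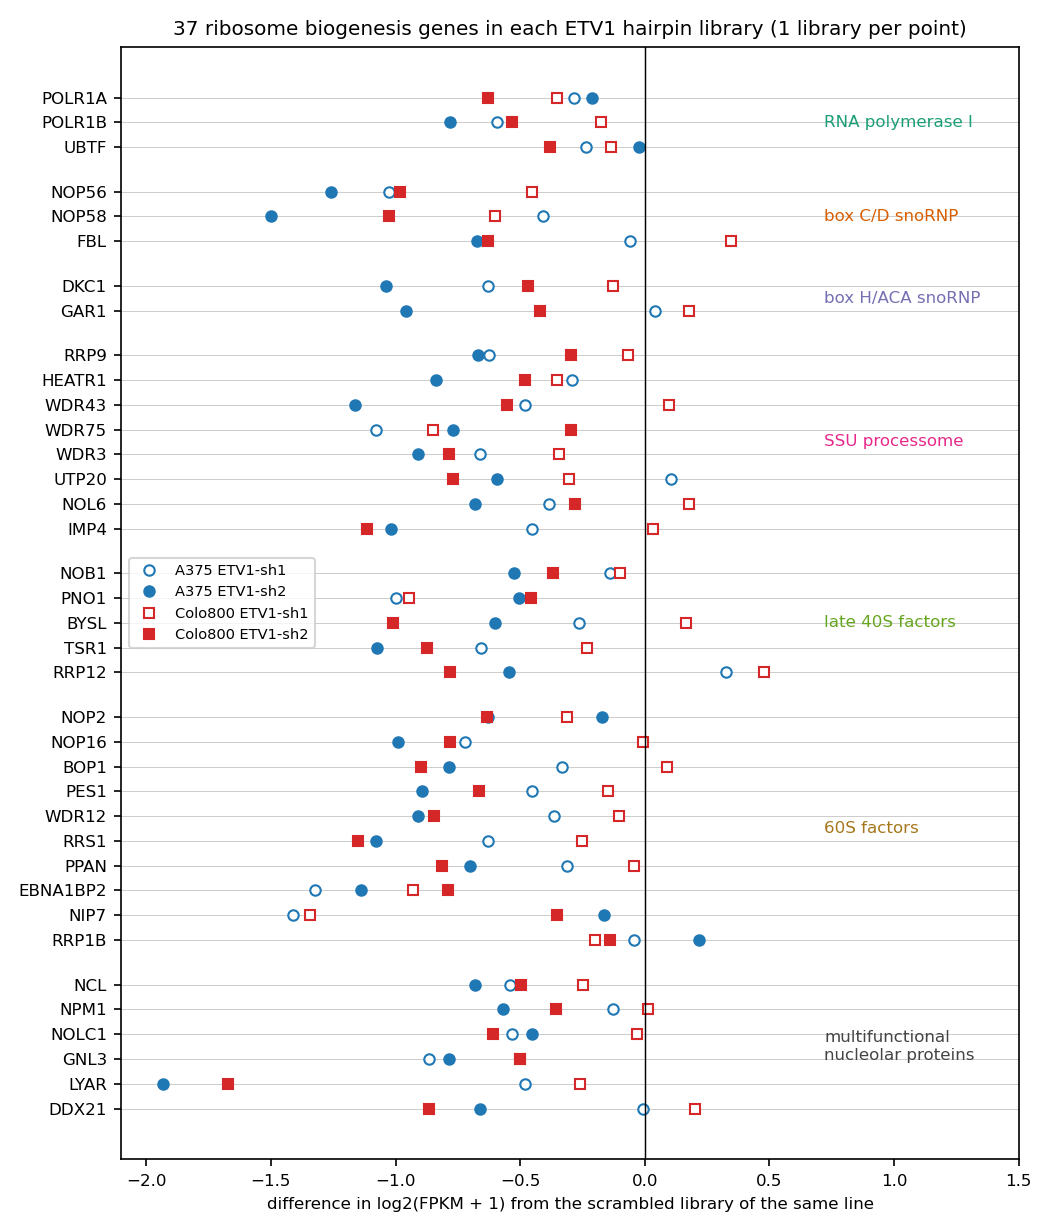
Difference in log2(FPKM + 1) between each ETV1 hairpin library and the scrambled library of the same line (x axis) for the 37 genes, grouped by role (y axis); circles are A375, squares Colo800, open symbols ETV1-sh1 and filled symbols ETV1-sh2, 1 library per point. Filled symbols lie left of 0 for every gene except RRP1B in A375, and LYAR is the farthest left, at -1.93 in A375 and -1.67 in Colo800.

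The tests asked whether such differences exceed the residual spread, with the difference in level between the lines removed. That spread is how far the hairpin differences disagree between A375 and Colo800, moderated over all genes. The tests used limma with the cell line and the 3 hairpins as terms (2 residual degrees of freedom). Benjamini-Hochberg adjustment was over the 11129 genes. With ETV1-sh2, 17 of 37 members fell (45.9%, adjusted p under 0.05) and none rose. Of all genes tested 9% fell and 7.73% rose. The median fitted log2 change was -0.68 for the members and 0.05 for all genes, and 36 of 37 members were negative, against 46.6% of all genes. With ETV1-sh1, 3 of 37 fell and none rose, where 1.51% of genes tested fell and 0.773% rose; 33 of 37 members were negative, with a median of -0.32 (0.002 over all genes, 49.8% of them negative). These calls rest on few libraries. Without the A375 scrambled library no member passed with ETV1-sh2 and without the Colo800 scrambled library only LYAR did. Of the 17, 10 still passed without either ETV1-sh1 library or without A375 ETV1-sh2, and 12 with no variance trend. With no filter on low values none passed (limma adjusted p from 0.104 to 0.174 for the 17). None of the 17 changed direction under any of these settings.

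**Figure D2:**
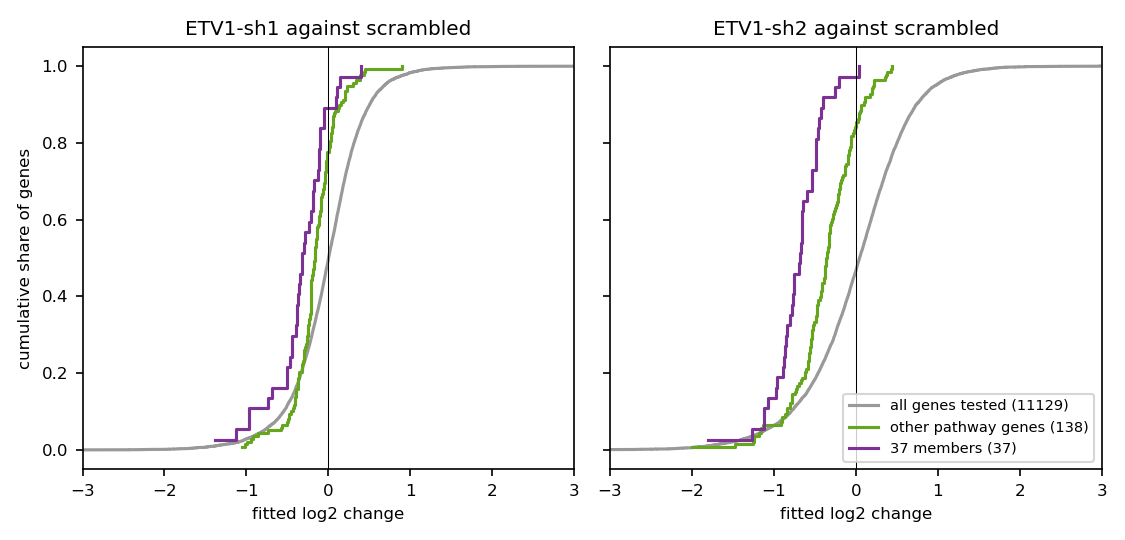
Cumulative share of genes (y axis) by fitted log2 change against scrambled (x axis) for ETV1-sh1 (left) and ETV1-sh2 (right); purple is the 37 members, green 138 other genes of the pathway and grey the 11129 genes tested. With ETV1-sh2 the median lies at -0.68 for the members, -0.36 for the other pathway genes and 0.05 for all genes.

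The RNA polymerase I group has only 3 members, and 0 of them passed the threshold with either hairpin. Of genes tested 9% fell with ETV1-sh2 and 1.51% with ETV1-sh1, so 0 of 3 is near those shares. All 3 were negative with both hairpins. POLR1A, the largest subunit of the polymerase, and POLR1B, the next largest, had fitted log2 changes of -0.42 and -0.66 (adjusted p = 0.166 and 0.0518) with ETV1-sh2. UBTF, the factor that keeps ribosomal DNA active and the most abundant of the 3, was at 51.8, 43.8 and 50.9 FPKM in A375 and at 52.8, 48.0 and 40.4 in Colo800. Its scrambled level was the highest in each line, but by little in A375 against ETV1-sh2 (98.2% of scrambled), and the fitted change was -0.20 (SE 0.18).

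The box C/D snoRNP, which methylates ribosomal RNA, is formed on the scaffold proteins NOP56 and NOP58 with the methyltransferase FBL (fibrillarin). NOP56 was at 213, 104 and 88.7 FPKM in A375 and at 349, 255 and 176 in Colo800. NOP58 was at 85.7, 64.3 and 29.7 FPKM in A375 and at 145, 95.2 and 70.6 in Colo800. Both scaffold genes descended in the order scrambled, ETV1-sh1, ETV1-sh2 in both lines and fell with ETV1-sh2 (NOP56 log2 change -1.12, SE 0.19, adjusted p = 0.018; NOP58 -1.26, SE 0.20, adjusted p = 0.0166). FBL behaved otherwise with ETV1-sh1: it was at 103, 99.2 and 64.5 FPKM in A375 and at 76.97, 98.2 and 49.4 in Colo800. Its change with ETV1-sh2 was -0.65 (adjusted p = 0.0512), and it was lower with ETV1-sh2 than with ETV1-sh1 (log2 difference -0.80, SE 0.17, adjusted p = 0.0346).

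The box H/ACA snoRNP converts uridine to pseudouridine through DKC1 (dyskerin), its catalytic subunit, and GAR1, a core partner. DKC1 was at 238, 153 and 115 FPKM in A375 and at 149, 136 and 107 in Colo800. It fell with ETV1-sh2 (-0.75, SE 0.19, adjusted p = 0.0454). GAR1 missed the threshold against scrambled (-0.69, adjusted p = 0.0574) and, like FBL, was lower with ETV1-sh2 than with ETV1-sh1 (-0.80, SE 0.19, adjusted p = 0.0443), being at 38.9, 40.1 and 19.5 FPKM in A375 and 39.8, 45.2 and 29.5 in Colo800.

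The SSU processome assembles on the nascent precursor and makes the early cuts that release the 40S precursor. All 8 members were negative with ETV1-sh2 in both lines (fitted log2 changes -0.48 to -1.07) and 3 fell. WDR43, of the subcomplex that also supports transcription of ribosomal DNA, was the most abundant, at 212, 152 and 94.0 FPKM in A375 and at 124, 132 and 84.0 in Colo800 (-0.86, SE 0.20, adjusted p = 0.0368). IMP4, which belongs to the U3 snoRNP, was at 90.0, 65.4 and 44.0 FPKM in A375 and at 142, 146 and 65.1 in Colo800 (-1.07, SE 0.19, adjusted p = 0.0209). WDR3 was at 68.3, 42.8 and 35.9 FPKM and at 48.0, 37.6 and 27.5 (-0.85, SE 0.17, adjusted p = 0.0251). Thus WDR43 and IMP4 were below scrambled with ETV1-sh1 in A375 but not in Colo800, and below it with ETV1-sh2 in both. The other members, HEATR1, UTP20, NOL6, RRP9 and WDR75, had ETV1-sh2 changes of -0.66, -0.68, -0.48, -0.48 and -0.53 (adjusted p from 0.057 to 0.136).

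Among late 40S factors, TSR1, a GTPase-like factor that keeps the immature subunit inactive, was at 43.5, 27.2 and 20.2 FPKM in A375 and at 26.5, 22.5 and 14.0 in Colo800, and fell with ETV1-sh2 (-0.97, SE 0.18, adjusted p = 0.0218). RRP12, an export factor of the precursors, had the largest positive change from scrambled of any member with ETV1-sh1, though it did not pass. It was at 65.8, 82.7 and 44.8 FPKM in A375 and at 34.5, 48.4 and 19.6 in Colo800. Both ETV1-sh1 libraries were above scrambled (126% and 140% of it) and both ETV1-sh2 libraries below (68.1% and 56.9%). The fitted changes were 0.40 (SE 0.17, adjusted p = 0.281) with ETV1-sh1 and -0.66 (SE 0.17, adjusted p = 0.0482) with ETV1-sh2, and the difference of the hairpins was -1.06 (adjusted p = 0.0159). PNO1, a partner of the endonuclease NOB1, showed another order, at 30.3, 14.7 and 21.1 FPKM in A375 and at 39.7, 20.1 and 28.6 in Colo800. It fell with ETV1-sh1 (-0.97, SE 0.16, adjusted p = 0.0431), while its ETV1-sh2 change of -0.48 did not pass (adjusted p = 0.0884). NOB1 and BYSL, an early-acting assembly factor, had ETV1-sh2 changes of -0.45 and -0.81 (adjusted p = 0.10 and 0.0622).

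The 60S factors held 6 of the 17 genes that fell with ETV1-sh2. PES1 and WDR12 are subunits of the PeBoW complex, which is needed to process the internal spacer of the precursor. PES1 was at 68.3, 49.6 and 36.3 FPKM in A375 and at 156, 140.1 and 97.7 in Colo800 (-0.78, SE 0.16, adjusted p = 0.0279). WDR12 was at 43.1, 33.2 and 22.5 FPKM and at 76.2, 70.8 and 41.9 (-0.88, SE 0.16, adjusted p = 0.0216). The remaining PeBoW subunit, BOP1, was low (6.73, 5.13 and 3.48 FPKM in A375, 5.20, 5.59 and 2.33 in Colo800) and just missed the threshold (-0.84, SE 0.23, adjusted p = 0.0514). All PeBoW genes thus had their lowest level with ETV1-sh2 in each line.

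RRS1, which helps bring the 5S RNA particle into the precursor, was at 41.6, 26.5 and 19.1 FPKM in A375 and at 17.1, 14.1 and 7.14 in Colo800 (-1.11, SE 0.19, adjusted p = 0.0189). NOP16 was at 99.0, 59.7 and 49.4 FPKM and at 40.05, 39.8 and 22.9 (-0.88, SE 0.21, adjusted p = 0.039). PPAN was at 102, 81.5 and 62.1 FPKM and at 71.2, 69.0 and 40.1 (-0.76, SE 0.17, adjusted p = 0.0332). These genes, too, were lowest with ETV1-sh2 in both lines. PPAN lies in a readthrough locus with P2RY11, so its reads cannot be assigned with certainty.

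EBNA1BP2, a 60S assembly factor, passed with both hairpins. It was at 170.2, 67.4 and 76.6 FPKM in A375 and at 181, 94.4 and 104 in Colo800. Every hairpin library held 39.6% to 57.6% of the scrambled level (ETV1-sh1 -1.13, SE 0.17, adjusted p = 0.0382; ETV1-sh2 -0.97, SE 0.17, adjusted p = 0.0199). NIP7 had the largest fall of any member with ETV1-sh1. NIP7 was at 35.0, 12.5 and 31.1 FPKM in A375 and at 17.3, 6.21 and 13.3 in Colo800. ETV1-sh1 left 35.8% and 35.9% of it, against 89.0% and 76.97% with ETV1-sh2. ETV1 itself was lowest with ETV1-sh2 in both lines, and the cause of the order of NIP7 was not tested. NIP7 fell with ETV1-sh1 (-1.38, SE 0.18, adjusted p = 0.0272) and not detectably with ETV1-sh2 (-0.26, SE 0.18, adjusted p = 0.328), and the difference between hairpins passed (1.12, SE 0.18, adjusted p = 0.0147). RRP1B was the only member with a positive fitted change with ETV1-sh2, at 82.7, 80.3 and 96.3 FPKM in A375 and 88.2, 76.7 and 80.0 in Colo800 (0.04, SE 0.17, adjusted p = 0.887). NOP2, an RNA methyltransferase, had changes of -0.47 with ETV1-sh1 and -0.40 with ETV1-sh2 (adjusted p = 0.313 and 0.237).

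**Figure D3:**
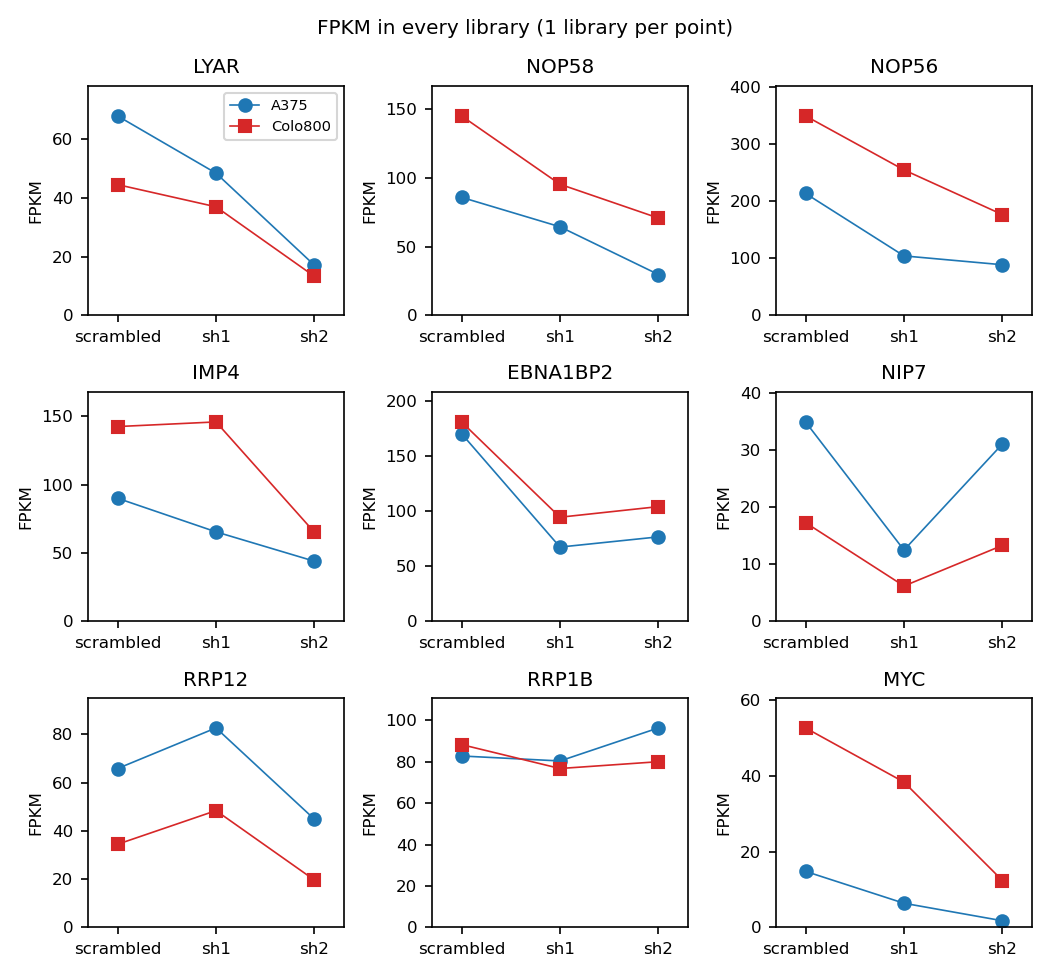
FPKM (y axis, from 0) with the scrambled hairpin, ETV1-sh1 and ETV1-sh2 (x axis) in A375 (blue circles) and Colo800 (red squares) for 8 members and MYC, 1 library per point; lines join the libraries of a line and do not stand for a time course. LYAR is lowest with ETV1-sh2 (17.1 and 13.3 FPKM), NIP7 lowest with ETV1-sh1 (12.5 and 6.21), and RRP12 highest with ETV1-sh1 (82.7 and 48.4).

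The last group holds nucleolar proteins with several functions. LYAR, a zinc-finger protein that promotes precursor processing and growth, had the largest change of all members. LYAR was at 67.9, 48.4 and 17.1 FPKM in A375 and at 44.5, 36.96 and 13.3 in Colo800. ETV1-sh2 left 25.1% and 29.8% of the scrambled level and ETV1-sh1 71.3% and 83.0% (ETV1-sh2 log2 change -1.80, SE 0.17, adjusted p = 0.00806; ETV1-sh1 -0.37, adjusted p = 0.298). GNL3 (nucleostemin), a GTPase, was at 211, 115 and 122 FPKM and at 222, 157 and 157 (ETV1-sh2 -0.64, SE 0.17, adjusted p = 0.0467; ETV1-sh1 -0.68, SE 0.17, adjusted p = 0.102). Its fitted difference between the hairpins was 0.04 (SE 0.17). DDX21, an RNA helicase that links transcription to processing, was at 100.3, 99.7 and 63.1 FPKM and at 99.3, 114 and 54.1 (ETV1-sh2 -0.76, SE 0.17, adjusted p = 0.0327). With ETV1-sh1, DDX21 held 99.5% of its scrambled level in A375 and 115% in Colo800.

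The most abundant member, NPM1 (nucleophosmin, a histone and ribosome chaperone), was at 1761, 1613 and 1187 FPKM in A375 and at 1290.5, 1303 and 1008 in Colo800. NCL (nucleolin) was at 651, 448 and 405 FPKM and at 1286, 1083 and 912. Both were lowest with ETV1-sh2 in each line without passing (NPM1 -0.46, adjusted p = 0.0904; NCL -0.59, adjusted p = 0.0523), as was the case for NOLC1, a snoRNP chaperone, in Colo800 only (-0.53, adjusted p = 0.115). In GENCODE 29, 45 pseudogenes are named after NPM1, 3 each after NOP56 and NIP7, 2 each after NCL and PES1 and 1 after LYAR, and no source used here says how reads were shared among copies. Exons of 17 members overlap exons of another gene there, mostly on the opposite strand, which cannot be told apart since strandedness is not given either.

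The hairpins were also compared with each other. Of 37 members, 30 had a lower fitted level with ETV1-sh2 than with ETV1-sh1 (median log2 difference -0.38, 0.05 over all genes, 46.2% of which were negative). In both lines 27 members were lower, as were 32.9% of genes tested. Past the threshold 6 were lower (16.2% of members, 6.91% of genes tested): LYAR (-1.43, adjusted p = 0.00804), RRP12, DDX21 (-0.86, adjusted p = 0.0268), IMP4 (-0.86, adjusted p = 0.0384), FBL and GAR1. NIP7 alone was higher (2.70% of members, 6.82% of genes tested). Beside NIP7, PNO1, WDR75, EBNA1BP2 and RRP1B were higher with ETV1-sh2 than with ETV1-sh1 in both lines, 5 members in all, where 39.1% of genes tested were. WDR75, of the same processome subcomplex as WDR43, was at 28.5, 13.0 and 16.3 FPKM in A375 and at 37.5, 20.4 and 30.4 in Colo800. Its ETV1-sh1 change of -0.96 (SE 0.19) missed the threshold (adjusted p = 0.0654). The ETV1-sh1 calls (NIP7, EBNA1BP2 and PNO1) went to 0 without either scrambled or either ETV1-sh1 library and with no filter, and to NIP7 alone with no variance trend; without Colo800 ETV1-sh2 5 members passed. The calls between hairpins went to 0 without either ETV1-sh1 library and with no filter, and 3 lower members passed with no variance trend or without either scrambled library.

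**Figure D4:**
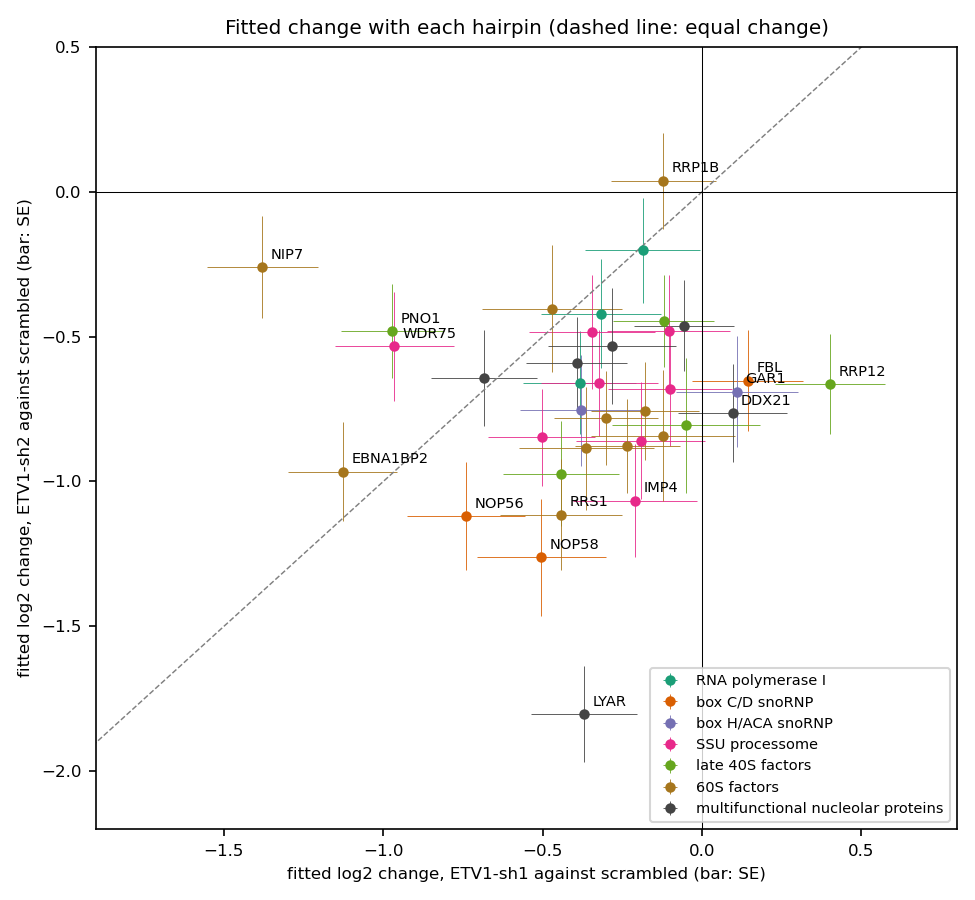
Fitted log2 change for ETV1-sh1 (x axis) and ETV1-sh2 (y axis) against scrambled for the 37 members, coloured by role, with SE bars; the dashed line marks equal change. Most members lie below the line, LYAR the farthest below at -0.37 and -1.80, while NIP7 (-1.38 and -0.26), PNO1 and WDR75 lie above it.

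When both ETV1 hairpins were fitted together against scrambled (3 residual degrees of freedom), the gap between the hairpins counts as spread. All 37 members were then negative (48.5% of all genes were), with fitted changes from -0.04 for RRP1B to -1.09 for LYAR and a median of -0.49. In limma 0 members and 0 genes in all (0% in either direction) passed, the smallest adjusted p among members being 0.279 for EBNA1BP2, and 12 members (of 37) had a lower level at an unadjusted value under 0.05, as had 5.09% of genes tested. Whether the effect differs between lines was tested with an interaction term, again with both hairpins taken as 1 knockdown state. The gap between the hairpins within a line is therefore the spread of this test too. Member SEs ran from 0.42 (GNL3) to 1.16 (LYAR), so only a large difference could have passed. In limma 0 members and 0% of genes passed in either direction, and 0 members had an unadjusted value under 0.05. The median difference, Colo800 effect minus A375 effect, was 0.18, with 30 of 37 members positive, but its sign turned without A375 ETV1-sh2 (-0.0184) or without Colo800 ETV1-sh1 (-0.00827). A difference between lines was therefore not shown.

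Between the lines, members went both ways. Over the 3 hairpin-matched pairs 11 members were higher in Colo800 and 11 lower (29.7% of members each), where 31.8% of genes tested were higher and 25.3% lower, so the shares were near those of all genes. PES1 was the farthest higher (log2 difference 1.35, SE 0.13, adjusted p = 0.000533), followed by NCL (1.14, SE 0.13, adjusted p = 0.00087) and NOP56 (0.99, SE 0.15, adjusted p = 0.00243). NOL6, a processome scaffold protein, was the farthest lower, at 89.2, 68.1 and 55.3 FPKM in A375 against 27.1, 30.7 and 22.1 in Colo800 (-1.36, SE 0.16, adjusted p = 0.00091), followed by RRS1 (-1.13) and NIP7 (-1.01). Partners in a complex did not go together: PES1 and WDR12 (0.92) were higher in Colo800 while BOP1 was at -0.21 (SE 0.18, adjusted p = 0.351), and NOP56 and NOP58 (0.84) were higher while FBL was at -0.27 (SE 0.14, adjusted p = 0.145). Whichever the hairpin, all 3 Colo800 libraries lay above all 3 of A375 in 3 members (26.2% of genes tested) and below them in 5 (21.6% of genes tested). Without either scrambled library 7 were higher and 6 lower, without either ETV1-sh1 library 7 and 9, and with no filter 6 and 7. With each library centred on its median the split was 9 higher and 14 lower.

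**Figure D5:**
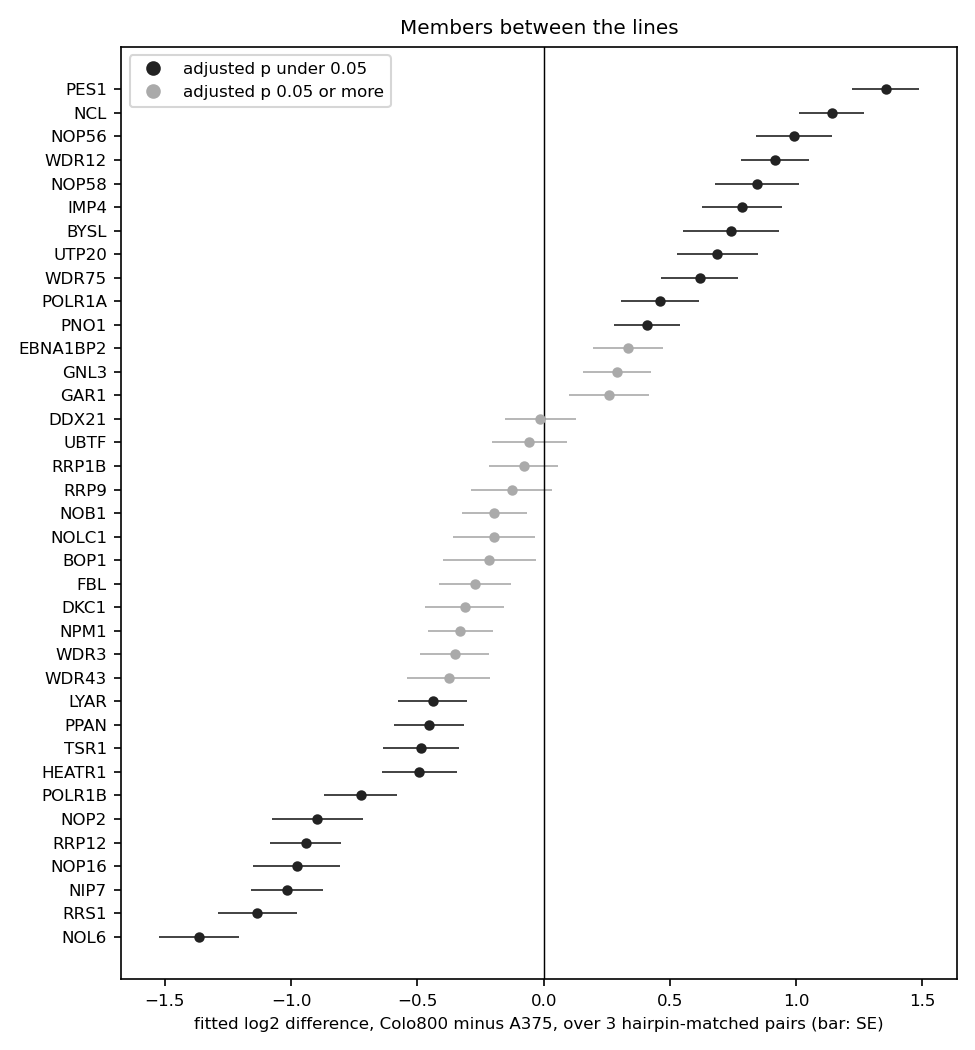
Fitted log2 difference between Colo800 and A375 over 3 hairpin-matched pairs (x axis, bars are SE) for each member (y axis, ordered by the difference); black marks an adjusted p under 0.05. The order runs from NOL6 at -1.36 to PES1 at 1.35, with 11 members passing on each side.

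Other genes of the pathway were described from fixed lists, also chosen with earlier results of these data known. Of 145 further entries (polymerase, snoRNP, 40S, 60S and exosome genes) 138 were matched and tested, of which 23 fell and 0 rose with ETV1-sh2 (118 negative, median -0.36), beside 9% of genes tested that fell, 7.73% that rose and 46.6% that were negative. With ETV1-sh1 2 fell and 1 rose (107 negative, median -0.17), beside 1.51% and 0.773% of genes tested. The largest group, 60S factors, had 12 of 56 that fell, led by MAK16 at 43.6, 31.5 and 9.06 FPKM in A375 and 44.3, 29.9 and 11.7 in Colo800 (-1.99, SE 0.18, adjusted p = 0.00806) and RPF1 (-1.24, adjusted p = 0.0127). Of 41 other processome and 40S genes 7 fell, led by CIRH1A, the UTP4 protein (-1.18, adjusted p = 0.0122), and DCAF13 (-0.90, adjusted p = 0.0198). POLR1E (-1.25, adjusted p = 0.0141) was 1 of 17 polymerase I genes, RUVBL1 (-0.80, adjusted p = 0.0491) 1 of 11 snoRNP genes, and EXOSC2 (-1.24, adjusted p = 0.0155) and EXOSC10 (-0.63, adjusted p = 0.0438) were 2 of 13 exosome genes that fell. The polymerase I and snoRNP counts are near the share of all genes tested. GLTSCR2 (NOP53), which recruits the exosome to the 60S precursor, rose with ETV1-sh1: it was at 159, 319 and 215 FPKM in A375 and at 77.8, 135 and 97.6 in Colo800 (0.89, adjusted p = 0.0457).

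Many snoRNAs are cut from introns of other genes, and 8 of the 36 members matched to GENCODE 29 host at least 1 (22.2%), against 208 of 10999 genes tested (1.89%). The hosts are NOP56 and GNL3 (5 snoRNAs each), NOP58 (4), NCL and WDR43 (3 each) and DKC1, TSR1 and PPAN (2 each). With ETV1-sh2 7 of the 8 hosts fell, all but NCL (median -0.81), and 10 of the 28 members that host none (median -0.66). Over all genes tested 9% fell and 7.73% rose. Of the 208 hosts among all genes tested 39 fell and 14 rose (median -0.26). With ETV1-sh1 0 of the 8 member hosts passed (median -0.42). Of the 208 hosts 2 fell and 1 rose with ETV1-sh1 (median 0.03), beside 1.51% and 0.773% of genes tested. Among non-coding snoRNA host genes, 8 of 16 listed were matched and 3 fell with ETV1-sh2, with SNHG5 at -0.73 (adjusted p = 0.0293) and SNHG6 at -0.77 (adjusted p = 0.031). The median of the 8 was -0.59 with ETV1-sh2. With ETV1-sh1 it was 0.12, with 4 negative, 4 positive and 0 that passed.

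Values that moved with these results are given for reading beside them. MYC was at 14.8, 6.38 and 1.76 FPKM in A375 and at 52.7, 38.4 and 12.4 in Colo800 (ETV1-sh2 -2.26, SE 0.22, adjusted p = 0.00806; ETV1-sh1 -0.77, adjusted p = 0.136). MXD1, a repressor that competes with MYC for its partner MAX, rose with ETV1-sh2 (0.88, SE 0.19, adjusted p = 0.0308), being at 12.7, 7.56 and 23.7 FPKM in A375 and at 5.92, 4.53 and 12.1 in Colo800. Its ETV1-sh1 change was -0.50 (adjusted p = 0.233). Of 9 tested genes of the MYC family and its dimer partners, 3 were negative and 6 positive with ETV1-sh2. MXI1 was negative with ETV1-sh1 and ETV1-sh2 (-0.64 and -0.57), MNT positive (0.42 and 0.41), and neither passed. The summed FPKM of 10 proliferation markers was 244, 138 and 43.2 in A375 and 683, 559 and 389 in Colo800, and 7 of the 10 fell with ETV1-sh2, as did 9% of genes tested. Their median differences from scrambled with ETV1-sh2 were -2.67 in A375 and -0.94 in Colo800. Those of the members were -0.77 and -0.63. MYC, these markers and the members were all lowest with ETV1-sh2 in both lines by their sums. Between the lines they differed. MYC was higher in Colo800 (log2 difference 2.15, SE 0.18), as were all 10 markers (median 2.24), where 31.8% of genes tested were. Of the members 11 were higher and 11 lower there (median -0.20). The part of MYC, of proliferation and of the agents named in the labels in the members' changes was not tested.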

How the data were processed

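The deposited values are FPKM. The submitters' processing notes name STAR 2.4, Cufflinks 2.2.1, Cuffnorm and the hg19 build. The annotation, scaling method, strandedness and any pooling of duplicates are not stated in any source used here. Symbols were used as deposited. No label names separate cultures, and a p-value therefore reflects spread among these 6 libraries alone, which may be technical.

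Genes with a mean of at least 1 FPKM (11129 of 17468) were tested with limma 3.58.1 in R 4.3.3 (lmFit, eBayes with a trend) on log2(FPKM + 1), which understates changes of low genes, with Benjamini-Hochberg adjustment over all of them and a threshold of 0.05. The code was checked on simulated data. Members, roles and lists were chosen with earlier results of these data known. Library values are given for members past the threshold against scrambled, for the most abundant of each role and for the largest changes. Those of FBL, GAR1, BOP1, NCL and WDR75 were given in addition, outside this rule and with their results known. Other pathway genes are those with the smallest p per list. RefSeq promoters and GENCODE 29 are on GRCh38, so they served for sequences and gene structure only. The CCGGAA motif and the count of hosted snoRNAs were added after the files were opened. Alternatives were another pseudocount, other filters, centring, no trend and leaving out each library.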

Additional observations from a re-analysis of the deposited data

How the results depend on the processing

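With a pseudocount of 0.1, a minimum mean of 5 FPKM or each library centred on its median, all 17 members lower with ETV1-sh2, all 3 lower with ETV1-sh1 and all 7 called between the hairpins still passed, and 20 to 22 of the 22 called between the lines did. With no filter on low values the counts were 0 in each hairpin comparison, and 6 higher and 7 lower between the lines. With no variance trend 13 members were lower with ETV1-sh2 (12 of the 17), 1 member was lower with ETV1-sh1 and 3 were lower with ETV1-sh2 than with ETV1-sh1. Leaving out 1 library at a time gave 0 to 14 members lower with ETV1-sh2, 0 to 5 lower with ETV1-sh1, 0 to 5 lower and 0 to 1 higher with ETV1-sh2 than with ETV1-sh1, and 7 to 9 higher and 6 to 9 lower in Colo800. The median difference of the effect between lines ranged from -0.0184 to 0.51 across libraries left out, being -0.0184 without A375 ETV1-sh2, -0.00827 without Colo800 ETV1-sh1 and 0.51 without Colo800 ETV1-sh2. That test could not be fitted without a scrambled library. Fits without a library have 1 residual degree of freedom, or 2 where both hairpins are fitted together, and a lone library is taken to vary like the others. No member called in the hairpin or line comparisons changed direction under any of these settings. The causes of the lost calls were not tested. FPKM give no absolute depth, so no counting error can be set on low genes such as BOP1.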
